A study of Mus musculus with 14 samples.

Results

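The heat shock and chaperone genes described here are 10 mouse genes chosen by symbol: the small heat shock proteins Hspb8, Hspb1 and Cryab, the HSP70 family members Hspa1a, Hspa1b, Hspa8 and Hspa5, the HSP90 genes Hsp90aa1 and Hsp90ab1, and Hsph1. Of these, 8 were found, as 8 of the 16244 genes to which the platform annotation assigns a probe set in the table, with 16 probe sets in all, while Hspa1a and Hsp90ab1 were not analysed here. A level of 5 on the log2 signal scale in at least 1 pool was required for testing, which 5 of the 10 genes reached: Hspb8, Hspa1b, Hsph1, Hspa5 and Hspa8. Because a gene enters through the pool where it is high, the values of these 5 do not stand for all 10.

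Single neurons of the medial vestibular nucleus, a brainstem nucleus that handles head motion signals, were sorted into types by the study from their own transcripts of transmitter genes, ion channels and markers, and the amplified cDNA of each type was pooled. The 7 pools analysed are E1 and E2, the excitatory types, and I1a, I1b, I2, I3a and I3b, the inhibitory types, with 2 technical arrays per pool. A further excitatory type named in the design, E3, was not analysed here. Mice were on the C57BL/6 background, 24 to 32 days old, and belonged to YFP-16, GIN or GlyT2-13, 3 lines in which sequences of Thy1, Gad1 and Slc6a5 respectively drive a fluorescent protein, and the labels name no treatment. The labels do not say which line fed which pool or how many cells a pool held, and each type has 1 pool, so that p-values between 2 types cover the spread between arrays of a pool and not between animals.

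Chaperones bind unfolded stretches of other proteins and help them fold, stay soluble or be degraded. HSP70 proteins work in cycles of ATP use that J-domain proteins start and nucleotide exchange factors, HSP110 among them, end, while small heat shock proteins hold clients without using ATP. Under proteotoxic stress the factor HSF1 binds heat shock elements, repeats of the GAA unit, and raises the inducible members, whereas constitutive members serve everyday folding. In the nervous system, mutations of Hspb1 and Hspb8 are known to cause inherited motor neuropathies.

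The arrays agreed closely. Over the 4409 genes tested, arrays of the same pool correlated at r = 0.981 to 0.992 and arrays of different pools at 0.847 to 0.960, values across genes, which are not independent replicates. All 5 neuronal markers measured exceeded 5 in every pool, Snap25 at 12.4 to 13.57. Gad1, which makes GABA, lay at 6.8 to 7.8 in the E pools and 10.75 to 12.38 in the I pools. Slc32a1, Gad2 and Slc6a5, also transmitter genes, were likewise higher in every I pool than in either E pool. The transmitter gene Slc17a6 read 11.11 in E1, 10.98 in E2 and 10.48 in I1b. It read 8.6 in I1a, 6.93 in I3a, 3.19 in I3b and 3.11 in I2. These values are a description only, since transmitter genes defined the types. Of the glial and vascular markers, 0 of 6 microglial and 0 of 4 endothelial genes measured reached 5 in a pool. The oligodendrocyte genes that did were Mbp and Cnp (2 of 10, highest in I3a at 6.20 and 9.14), the astrocyte genes Aldoc and S100b (2 of 9) and the pericyte gene Rgs5 (1 of 4, 7.35 in I2), while Gfap, Aqp4, Slc1a3, Aldh1l1, Mog, Cldn11, C1qa, Aif1, Cldn5, Pdgfrb and Vtn lay within 0.15 of the floor of 2.387 in all 7 pools. Pool medians over the genes tested lay between 6.39 in I1a and 6.70 in I2.

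Hspb8, a small heat shock protein that works with Bag3 to send misfolded proteins to autophagy, varied most among the 5 genes. It read 9.49 and 9.43 on the E1 arrays, 7.25 and 7.02 on the E2 arrays, 7.93 and 7.64 on the I1b arrays and 5.32 and 4.26 on the I3a arrays. It read 2.60 and 4.77 on the I1a arrays, 2.39 and 2.60 on the I2 arrays and 2.58 and 2.60 on the I3b arrays. E1, I1b and E2 were thus high in that order with no overlap between neighbours, and from I3a down through I1a and I3b to I2 the arrays of each pool overlapped those of the next. Its range over pools, the highest minus the lowest pool mean, was 6.97 log2 units, larger than in 99.7% of the genes tested, whose median range was 1.13. Its lowest pool, I2, lay at the floor, so this size and rank depend on where the floor lies, and with values under 5 set to 5 the range was 4.46. The standard deviation of its 7 pool means was 2.73, against 0.65 between arrays of a pool.

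That pattern came from the Hspb8 probe set 1456434_x_at alone. The other, 1417013_at, stayed between 2.49 and 2.97 on all 14 arrays, with a range over pools of 0.34 and its highest pool mean, 2.83, in E1. The suffix x marks a set in which some probes also match other sequences, and whether such a match contributes was not tested. Probe sets that disagree in this way were common: of 2423 tested genes with several probe sets, 1628 (67.2%) had at least 1 that stayed under 3 in every pool. With the mean of both sets in place of the brighter one, the Hspb8 range was 3.65.

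Hspb1 and Cryab, the other small heat shock proteins among the members, lay at or near the floor. Both Hspb1 probe sets lay between 2.39 and 2.41 on all 14 arrays. Of the 3 Cryab probe sets, 2 lay between 2.39 and 2.43, and the third reached 3.13 on an I3a array and 3.03 on an I1a array while its other 12 arrays lay within 0.15 of the floor. No array of either gene reached 5, so no order among pools can be read. Of 5 further small heat shock genes of the list, Hspb2, Hspb3, Hspb7 and Hspb9 had pool means of at most 2.52. Hspb6 lay above the floor, at pool means of 2.75 to 3.44, but below the level needed for testing. Hspb11 alone of that list was tested, at 4.57 in I3a to 5.93 in I2, and it differed among pools (adjusted p 0.000372 by limma). Over all 16244 genes, 3471 (21.4%) lay within 0.15 of the floor on all arrays and 4409 (27.1%) were tested.

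Hspa1b, a stress-inducible HSP70 that is low in unstressed cells, was the member with the next largest range, 3.16, larger than in 93.5% of the genes tested, and 1.06 with values under 5 set to 5. It read 6.19 and 5.93 on the E1 arrays, 5.24 and 5.07 on the I1b arrays, 3.82 and 5.20 on the I1a arrays and 3.80 and 4.57 on the E2 arrays. It read 3.54 and 3.65 on the I3b arrays, 2.94 and 3.24 on the I2 arrays and 2.69 and 3.11 on the I3a arrays. E1 stood clear of all other pools, I1b, I1a and E2 overlapped in turn, I3b lay below them, and I2 and I3a overlapped at the bottom. Here too 1 probe set, 1452318_a_at, carried the signal: 1427127_x_at lay between 2.39 and 2.65 and 1427126_at at 2.39 on all 14 arrays.

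Hspa1a and Hspa1b lie on the same strand of chromosome 17 as near-identical copies, so the reading named Hspa1b is uncertain between them. Probe sequences were not used here, so which copy the probe set reads was not tested. The upstream sequences lie outside the transcript and cannot show it, and they are given to show how alike the copies are in front of the gene, each as the 250 bases before the transcript start in RefSeq, 5′ to 3′, with the 3 bases that differ between the copies in capitals.

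Hspa1b (GRCm38.p6, chr17:34959239-34959488, minus strand): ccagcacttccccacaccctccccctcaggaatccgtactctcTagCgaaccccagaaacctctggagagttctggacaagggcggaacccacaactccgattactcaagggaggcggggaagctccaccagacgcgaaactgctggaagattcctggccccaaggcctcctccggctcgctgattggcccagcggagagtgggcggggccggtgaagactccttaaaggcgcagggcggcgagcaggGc

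Hspa1a (GRCm38.p6, chr17:34972157-34972406, minus strand): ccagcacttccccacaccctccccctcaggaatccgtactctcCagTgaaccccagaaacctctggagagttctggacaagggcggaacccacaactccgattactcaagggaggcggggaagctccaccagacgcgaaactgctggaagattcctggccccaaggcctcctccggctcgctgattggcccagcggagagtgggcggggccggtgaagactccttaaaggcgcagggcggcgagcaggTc

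The copies were identical at 98.8% of these 250 bases. Both hold the heat shock element core GAANNTTC at the same place, positions -104 to -97 counted from the start. This core and its alternate phase TTCNNGAA each read the same on both strands, and 1 or the other occurs in 12.8% of the 32851 upstream windows of that length in the table. Such a match describes the letters only.

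Hsph1, an HSP110 protein that acts as a nucleotide exchange factor for HSP70, was high in every pool and repeated closely between arrays. It read 9.76 and 9.79 on the E2 arrays, 9.69 and 9.76 on the I1b arrays and 9.45 and 9.39 on the E1 arrays. It read 9.10 and 8.98 on the I2 arrays, 8.86 and 8.97 on the I3a arrays, 8.81 and 8.92 on the I3b arrays and 8.83 and 8.57 on the I1a arrays. E2 and I1b overlapped at the top, E1 came next without overlap on either side, I2 stood below it, and I3a, I3b and I1a overlapped in turn. The range was 1.07 with a standard deviation of 0.09 between arrays of a pool. E1, E2 and I1b, the 3 pools in which Hspb8 was high, were also the 3 highest for Hsph1.

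Hspa5, the HSP70 of the endoplasmic reticulum also called BiP, was also high throughout and the steadiest of the 5. Over 14 arrays 1416064_a_at ran from 9.00 to 9.82 with a median of 9.38, and its range of 0.59 over pools was larger than in 14.7% of the genes tested. The E2 arrays read 9.82 and 9.69 and the E1 arrays 9.61 and 9.33, against 9.36 and 9.00 for I1a and 9.14 and 9.20 for I2. I1b read 9.51 and 9.41, I3a 9.37 and 9.39 and I3b 9.36 and 9.42. E2 alone stood clear at the top, E1, I1b, I3b and I3a overlapped in turn, and I1a and I2 overlapped at the bottom. The other Hspa5 probe sets had similar ranges at lower levels, 0.65 for 1447824_x_at (7.49 to 8.32 over arrays) and 0.70 for 1427464_s_at (3.68 to 4.66), and differed in which pool was highest, I1a in the former and E2 in the latter.

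Hspa8, the constitutive HSP70 that also strips clathrin from vesicles, was read by 1 probe set between 3.65 and 5.49, with a range over pools of 1.53, larger than in 68.1% of the genes tested, and a standard deviation of 0.34 between arrays of a pool. It read 5.02 and 5.49 on the I3a arrays, 4.75 and 5.33 on the I1a arrays, 4.64 and 4.47 on the E1 arrays and 4.03 and 4.74 on the I1b arrays. It read 3.65 and 4.29 on the I3b arrays, 4.05 and 3.77 on the E2 arrays and 3.80 and 3.65 on the I2 arrays. Only I3a and I1a, which overlapped, stood above the rest, and the other 5 pools overlapped in turn. Hsp90aa1, the inducible cytosolic HSP90, had 1 probe set, which lay at 2.39 on 13 arrays and at 2.72 on 1 I3a array. For Hspa8 and Hsp90aa1 there was no second probe set to compare. Whether a low reading reflects the gene or its probe set was not tested, so neither gene can be called low from these values.

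**Figure D1:**
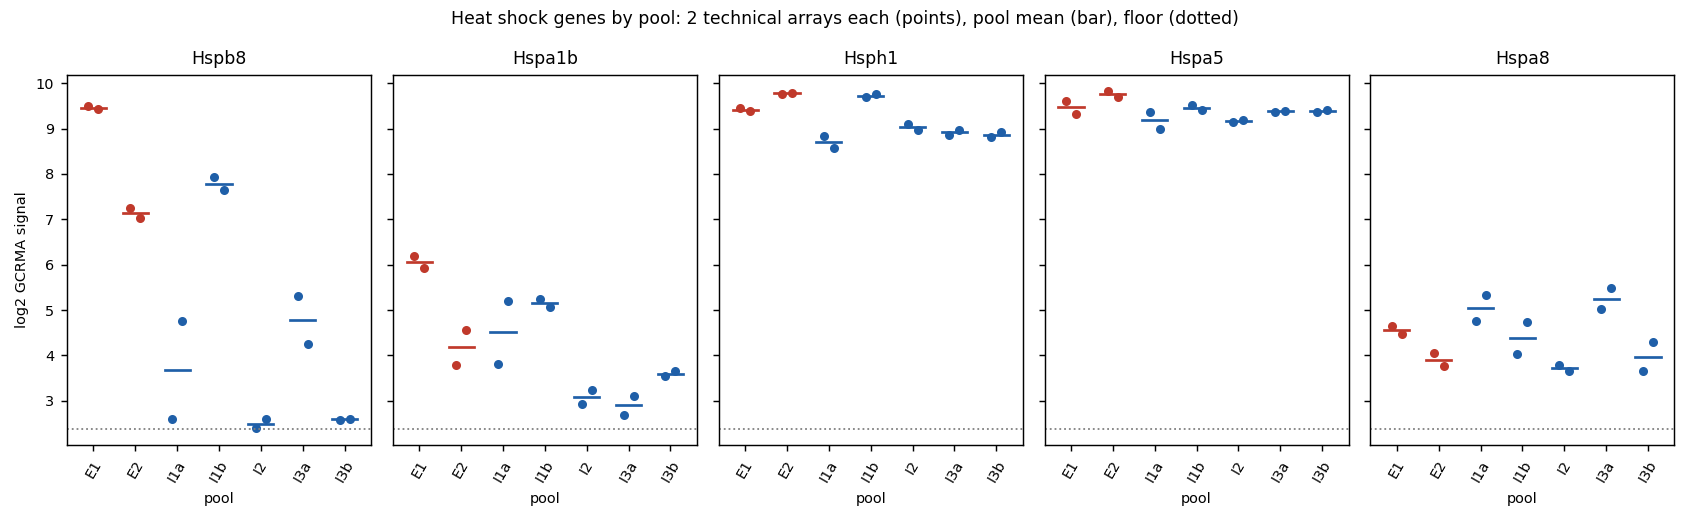
Log2 GCRMA signal (vertical axis) of the 5 tested genes in the 7 pools (horizontal axis), with points for the 2 technical arrays of each pool, bars for pool means, red for E pools, blue for I pools and a dotted line at the floor of 2.387. Hspb8 spans 2.49 to 9.46 over pool means, while Hsph1 and Hspa5 stay between 8.70 and 9.77.

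**Figure D2:**
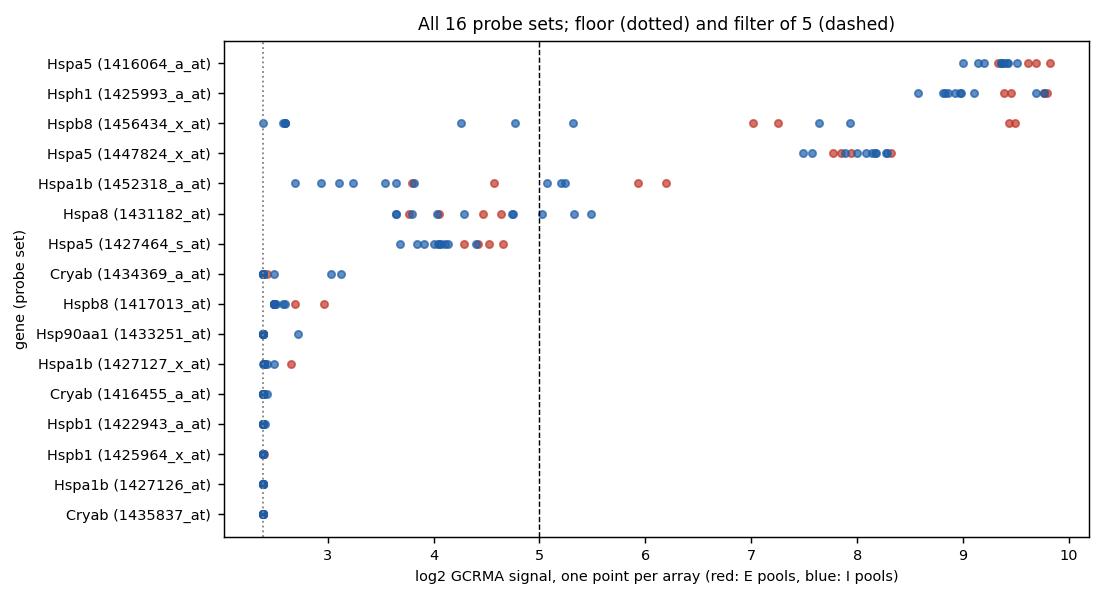
Log2 GCRMA signal of all 16 probe sets of the 8 measured genes (rows), with 1 point per array, red for E pools and blue for I pools. Hspb8 and Hspa1b each have a probe set that varies and at least 1 other that stays near the dotted floor, and the dashed line marks the level of 5 used for testing.

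Whether the pools differed beyond technical error was asked of all 14 arrays at once, with limma's moderated F-test and a range of at least 1 log2 unit. Of the 5 genes tested, 4 were called: Hspb8 (adjusted p 7.86e-07), Hsph1 (3.9e-06), Hspa1b (9.97e-05) and Hspa8 (0.00289). Hspa5 had an adjusted p of 0.01 but a range below 1. Calls were frequent over all genes, at 2433 of 4409 (55.2%), so 4 of 5 is no mark of these genes. Hsph1 fell just under the required range after quantile normalization (0.98), with arrays centred on their median (0.98) and without I1a replicate 2 (0.94). With values under 5 set to 5 Hspa8 lost both the size and the p required, at a range of 0.26 and an adjusted p of 0.404.

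How excitatory and inhibitory types differ was asked over 7 pool means, 2 of E types and 5 of I types. Hspb8 had the higher mean in the E pools, 8.30 against 4.27, a difference of 4.03 log2 units (SE 1.43), but I1b at 7.79 lay between E1 and E2. It was 2.09 with the mean of the probe sets and 2.71 with values under 5 set to 5. Hspa1b differed by 1.27 (SE 0.76), Hsph1 by 0.55 (SE 0.30), Hspa5 by 0.30 (SE 0.19) and Hspa8 by -0.24 (SE 0.50). With 2 E pools these values turned on each: Hspa1b differed by 0.34 without E1 and 2.21 without E2, and by 0.48 with values under 5 set to 5, while Hspa5 differed by 0.15 and Hsph1 by 0.37 without E2, and Hspa8 by -0.56 without E1 and 0.08 without E2. By limma on 7 pool means the adjusted p was 0.737 for Hspb8 and 0.78 to 0.941 for the others, so 0 of 5 members were called, beside 1 of 4409 genes (0.0227%). Hspb8 was the 1 member among the 273 genes with an unadjusted limma p under 0.05. The median difference of the 5 members was 0.55, beside -0.01 over all genes tested. That median is a description only, since the 5 passed the filter through their high pools and were not tested as a set.

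Pool means of the E and I pools did not overlap for 1 of the 5, Hspa5, where E1 at 9.47 and I1b at 9.46 nearly met, beside 537 of 4409 genes (12.2%), of which 264 were higher in E (5.99%) and 273 in I (6.19%). This held for the Hspa5 probe set tested. In 1447824_x_at E1 at 7.86 and E2 at 8.09 lay within the I pools, 7.53 in I2 to 8.18 in I1a. In the dim 1427464_s_at E1 at 4.41 and E2 at 4.54 lay above the highest I pool, I1b at 4.22. S100b, a calcium-binding protein of astrocytes and some neurons, had E1, I1b and E2 as its highest pools too: its mean was 9.02 for E1, then 7.76 for I1b and 7.06 for E2, against 5.24 to 6.50 in the other 4, and its part in the result was not tested. Gfap, Aqp4, Slc1a3, Aldh1l1 and Agt, other astrocyte markers, were within 0.15 of the floor in all 7 pools, and the 9 astrocyte markers measured had a mean level of 3.76 in I2 to 4.21 in E1.

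How the inhibitory families I1 and I3 differ was asked with 2 pools of each in a fit of all 7 pool means. Hspa1b had the higher values in I1, at 5.16 in I1b and 4.51 in I1a against 3.60 in I3b and 2.90 in I3a, a difference of 1.59 (SE 0.67) that was 0.13 with values under 5 set to 5. It was the 1 member of 5 whose pool means did not overlap, beside 1762 of 4409 genes (40.0%), 746 of them higher in I1 (16.9%) and 1016 in I3 (23.0%). Hspb8 differed by 2.05 (SE 1.55) with I3a at 4.79 above I1a at 3.69, and by 1.02 with the mean of its probe sets and 1.31 with values under 5 set to 5. Hsph1 differed by 0.32 (SE 0.37), Hspa8 by 0.10 (SE 0.53) and Hspa5 by -0.07 (SE 0.22). Adjusted p by limma was 0.47 for Hspa1b and 0.684 to 0.97 for the others, so 0 of 5 were called, as were 0 of 4409 genes (0%). An unadjusted p under 0.05 was found for 496 genes and for 0 of the 5, and when all 14 arrays entered, the pool taken as a random effect, 114 genes were called but 0 of the 5. Without I1b the Hspb8 difference was -0.01 and that of Hsph1 -0.19.

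Among the excitatory types, E1 had more Hspb8 and Hspa1b than E2. Hspb8 was higher by 2.33 log2 units or 5.03-fold (SE 0.52, adjusted p 0.00635 by limma), and Hspa1b by 1.87 or 3.66-fold (SE 0.38, adjusted p 0.00368). Hsph1 differed by -0.35 (SE 0.10, adjusted p 0.0203), below the size required, and Hspa5 by -0.29 and Hspa8 by 0.65 with adjusted p of 0.106 and 0.138. Thus 2 of 5 members were called, beside 326 of 4409 genes (7.39%), and both were higher in E1, beside 185 genes higher in E1 (4.2%) and 141 higher in E2 (3.2%). The Hspb8 difference was 1.33 with the mean of its probe sets, and its adjusted p was 0.0814 without the low-signal filter. The Hspa1b difference was 1.06 with values under 5 set to 5, and its adjusted p by limma was 0.0484 without the filter. Its pool mean reached 5 only in E1 and I1b, so it was tested through E1, 1 of the pools compared. Both its E2 arrays lay under 5, at 3.80 and 4.57, so its fold rests on low signal in E2. S100b also read higher in E1, at 9.02 against 7.06 in E2, whereas Mbp and Cnp read 2.68 and 5.27 in E1 and 2.94 and 5.49 in E2, and the part of S100b in the result was not tested.

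Among the I1 types, I1b had more Hspb8 and Hsph1 than I1a. Hspb8 was higher in I1b by 4.1 log2 units, the difference of I1a minus I1b being -4.1 (SE 0.52, adjusted p 8.35e-05 by limma). No fold is given, since an I1a array at 2.60 lay near the floor, and with values under 5 set to 5 the difference was -2.79 (adjusted p 6.44e-07). Hsph1 differed by -1.03 (SE 0.10, adjusted p 1.28e-05), or 2.04-fold. Hspa1b differed by -0.64, Hspa5 by -0.28 and Hspa8 by 0.66, with adjusted p of 0.205, 0.087 and 0.0997. Without I1a replicate 2 the Hspa1b difference was -1.34 (adjusted p 0.0103), without I1a replicate 1 it was 0.05, and without I1b replicate 2 that of Hspa8 was 1.01 (0.0428). Called were 2 of 5 members, beside 579 of 4409 genes (13.1%), and both were higher in I1b, beside 431 genes higher in I1b (9.78%) and 148 higher in I1a (3.36%).

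That split of all called genes, 148 higher in I1a and 431 in I1b, became 221 and 275 after quantile normalization and 227 and 256 with arrays centred on their median. With the same rescalings Hsph1 differed by -0.72 and -0.78 (adjusted p 1.75e-05 and 2.42e-05) and was no longer past the size required, and it differed by -0.9 without I1a replicate 2 and -0.99 without I1b replicate 2. The I1a arrays disagreed for Hspb8, at 2.60 and 4.77: without I1a replicate 1 its difference was -3.02 and without I1a replicate 2 -5.19, and with the mean of its probe sets -2.07. Some glial markers read higher in I1b as well: Mbp at 5.50 against 2.43 in I1a, Cnp at 6.62 against 4.93 and S100b at 7.76 against 6.50. Mobp (2.39 in I1b against 2.62 in I1a), Gja1 (2.42 against 2.66) and Sox10 (4.77 against 4.80) were among those that went the other way. The mean of the 10 oligodendrocyte markers measured was 3.43 in I1b and 2.97 in I1a, and that of the 9 astrocyte markers 4.09 and 3.95. Mog, Cldn11, Mal, Gfap and Aqp4 lay near the floor in both, and the part of these markers in the result was not tested.

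Among the I3 types, I3a had more Hspb8 and Hspa8 than I3b. Hspb8 was higher by 2.2 log2 units (SE 0.52, adjusted p 0.00768 by limma), with no fold given because both I3b arrays lay near the floor, and Hspa8 by 1.29 or 2.45-fold (SE 0.30, adjusted p 0.00705). Hspa1b differed by -0.70, Hsph1 by 0.05 and Hspa5 by -0.01, with adjusted p of 0.195, 0.766 and 0.973. The 2 of 5 called, both higher in I3a, stood beside 437 of 4409 genes (9.91%) and 132 higher in I3a (2.99%) against 305 in I3b (6.92%), which became 163 and 240 after quantile normalization. Mbp and Cnp also moved this way, at 6.20 and 9.14 in I3a against 3.43 and 5.14 in I3b. The mean of the 10 oligodendrocyte markers measured was 3.79 against 3.08, and that of the 9 astrocyte markers 4.07 against 3.78. Opalin read 3.04 against 2.47, and Gja1, an astrocyte marker, 4.19 against 2.41. Mag (2.79 against 2.97) and Sox10 (4.57 against 4.64) were among those that went the other way. Mog, Cldn11 and Mal lay near the floor in all 7 pools. The part of these markers in the result was not tested, and in a pool more cells with a transcript cannot be told apart from more transcript per cell.

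Both I3 calls rested on low levels. With values under 5 set to 5 the Hspb8 difference was 0.16 and the Hspa8 difference 0.26 (adjusted p 0.499 and 0.201), and without the low-signal filter the adjusted p was 0.0874 and 0.0564. Hspb8 was not called without I3a replicate 1 (1.67, adjusted p 0.066), nor Hspa8 without I3a replicate 2 (1.05, 0.0608) or I3b replicate 1 (0.97, 0.0657).

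**Figure D3:**
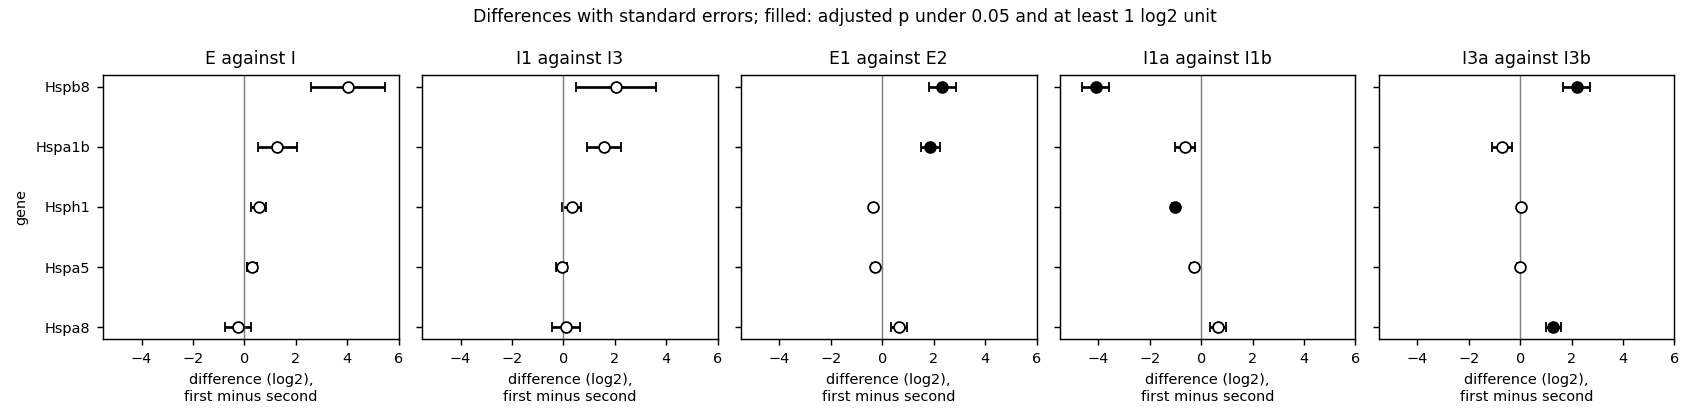
Differences in log2 signal (horizontal axis, first-named group minus the second) of the 5 tested genes (rows) in 5 comparisons, with bars of 1 standard error and filled points for genes called by limma. Points are open in both comparisons of pool means, and Hspb8 is filled in all 3 comparisons of types. Bars of the former reflect the spread among pools, those of the latter only that between technical arrays. Bars and filling are therefore not comparable between these kinds of comparison.

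Members were set against each other by correlation over the 7 pool means, a description with no p, since all genes of a pool share its arrays and scaling. Hspb8 ran with Hspa1b at r = 0.80 (Spearman rho 0.71) and with Hsph1 at 0.79 (rho 0.61), and Hspa5 ran with Hsph1 at 0.79 (rho 0.71). Hspa8 did not follow the others, at r = -0.37 with Hsph1 and 0.14 with Hspb8. The upstream sequences of Hspb8, Hsph1 and Hspa5 are shown because these genes correlated in pairs, with heat shock element cores and, in Hspa5, the endoplasmic reticulum stress element in capitals, which is CCAAT and CCACG with 9 bases of any kind between them.

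Hspb8 (GRCm38.p6, chr5:116422865-116423114, minus strand): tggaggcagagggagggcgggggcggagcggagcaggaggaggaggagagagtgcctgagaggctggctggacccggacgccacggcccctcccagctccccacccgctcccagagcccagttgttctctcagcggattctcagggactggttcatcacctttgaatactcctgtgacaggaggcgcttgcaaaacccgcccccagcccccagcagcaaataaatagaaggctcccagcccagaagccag

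Hsph1 (GRCm38.p6, chr5:149636337-149636586, minus strand): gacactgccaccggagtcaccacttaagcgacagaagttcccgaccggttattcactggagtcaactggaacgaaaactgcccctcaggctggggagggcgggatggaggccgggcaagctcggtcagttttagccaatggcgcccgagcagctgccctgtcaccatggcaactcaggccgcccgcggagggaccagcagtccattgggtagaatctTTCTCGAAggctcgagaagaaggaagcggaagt

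Hspa5 (GRCm38.p6, chr2:34771840-34772089, plus strand): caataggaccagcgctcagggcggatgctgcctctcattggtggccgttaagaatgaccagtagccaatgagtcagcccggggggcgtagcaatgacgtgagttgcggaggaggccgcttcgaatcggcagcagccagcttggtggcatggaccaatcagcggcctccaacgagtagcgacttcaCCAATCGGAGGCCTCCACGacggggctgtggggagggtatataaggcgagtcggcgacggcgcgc

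In Hsph1 the core TTCNNGAA lay at positions -33 to -26. That gene extends to chr5:149636498 in RefSeq, so part of its window, with this core, lies inside the gene, in front of an inner transcript start. In Hspb8 neither core was found in the 250 bases. The stress element, which occurs in 0.113% of the windows counting both strands, lay at positions -65 to -47 of Hspa5. Hspb1, at the floor, had 2 cores of the form GAANNTTC in its window. Among members with a window, a core was thus present in Hspa1b, Hspa1a, Hsph1 and Hspb1, and absent in Hspb8, which varied most, and in Hspa5. RefSeq windows matched 6 of the 10 genes.

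The genes most like Hspb8 and Hspa1b were sought among 821 others with a range of at least 2 log2 units, by Pearson's r over 7 pool means and with no p. Npy5r, a receptor of neuropeptide Y, ran with Hspb8 at r = 0.952, at 6.43 in E1, 6.06 in I1b and 4.40 in I2. Htr2c, a serotonin receptor, ran with it at 0.95, from 7.03 in I2 to 10.55 in E1, and S100b at 0.942. Nearest to Hspa1b were Ret, a receptor tyrosine kinase of the GDNF family pathway, at 0.955, S100b at 0.952 and Gas2l3, a cytoskeletal linker, at 0.951. Ret read 9.23 in E1, 8.95 in I1b and 8.25 in I1a, against 4.32 in I3a.

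The wider chaperone network was read from lists of partners and relatives. Of 116 further genes in 9 lists, 105 had a probe set and 55 were tested, of which 21 (38.2%) differed among pools, against 55.2% of all genes tested. Their median range was 0.92, against 1.13 over all genes. Between E and I, and between I1 and I3, 0 of the 55 were called, with median differences of 0.04 and -0.06.

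**Figure D4:**
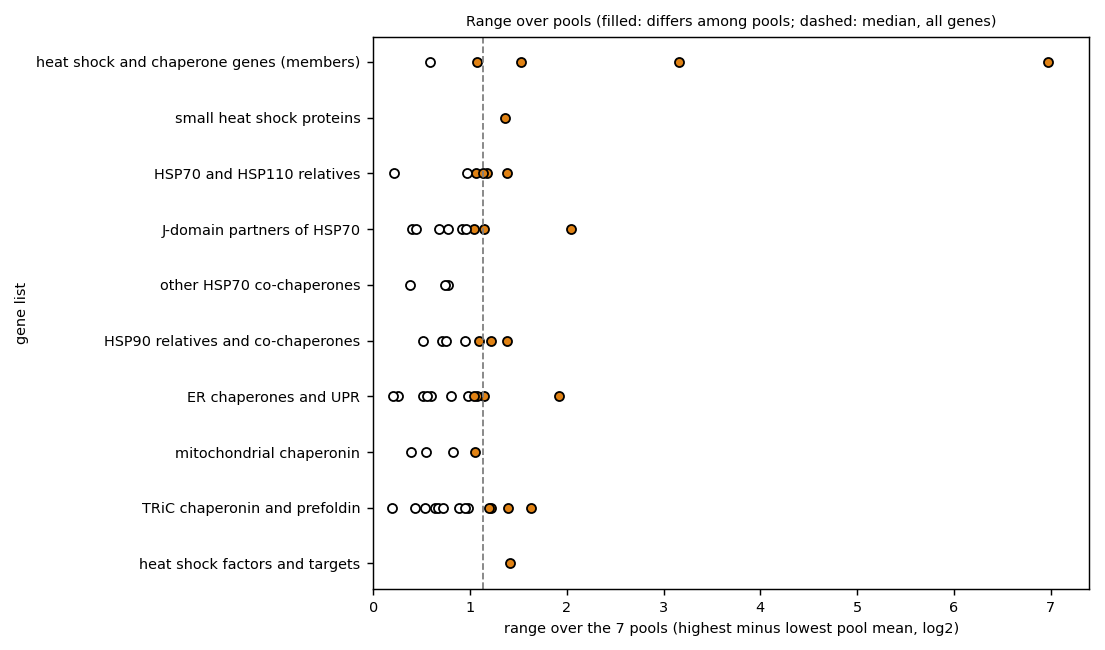
Range over the 7 pools (highest minus lowest pool mean, log2) of each tested member and of each tested gene of 9 chaperone lists (rows), filled where limma's F-test called a difference among pools. UPR is the unfolded protein response and ER the endoplasmic reticulum, the dashed line marks the median range of all genes tested (1.13), and Hspb8 (6.97) and Hspa1b (3.16) stand to the right of every listed gene.

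Of 6 HSP70 and HSP110 relatives tested, 4 differed among pools: Hspa13, a microsomal HSP70, at 7.58 in E2 to 8.96 in I2, Hspa4l, an HSP110 gene, at 9.50 in I2 to 10.68 in I1b, Hspa12a at 4.94 in I2 to 6.08 in E2, and Hspa9, the mitochondrial HSP70, at 7.73 in I1a to 8.79 in I1b. Of 9 J-domain genes 3 did: Dnajc21, which acts in ribosome assembly, at 5.11 in I2 to 7.14 in I1b, Dnajb4 at 8.76 in E2 to 9.90 in I2, and Dnajb1, the classic heat-inducible partner of HSP70, at 9.46 in I1a to 10.50 in I2. Of 3 other co-chaperones, Stub1, a ubiquitin ligase, St13 and Bag1, 0 were called, with ranges of 0.77, 0.74 and 0.38. Dnajb1 did not share the order of Hspa1b, since I2 was its highest pool and the next to last for Hspa1b.

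HSP90 relatives were represented by 7 genes, of which 3 differed among pools. Chordc1, an HSP90 co-chaperone, lay at 7.84 in I3b to 8.92 in I1b, Cdc37l1 at 4.19 in I3a to 5.42 in E2, and Unc45a, a myosin chaperone, at 5.60 in I1b to 6.98 in I3a. Hsp90b1, the HSP90 of the endoplasmic reticulum, had a range of 0.95 and was not called. Of 11 genes of the endoplasmic reticulum and its unfolded protein response, 4 were: Canx, a lectin chaperone, at 3.33 in I3a to 5.26 in I2, Dnajc10 at 7.14 in I3a to 8.28 in I2, Manf, a secreted trophic factor, at 5.07 in I3a to 6.13 in I2, and Xbp1, a transcription factor of the response, at 8.52 in E1 to 9.56 in I2. Of these 11 genes 7 (63.6%) had their highest mean in I2, as had 29.2% of all genes, and I2 had the highest pool median (6.7). With arrays centred on their median 5 (45.5%) had, against 23.3%. Canx, counted among the 7, had a mean of at least 5 in I2 alone. The level required for testing thus fixed I2 as its highest pool, and its other pools read low signal. Hspa5 itself read 9.17 in I2, its lowest pool, and 9.18 in I1a.

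TRiC, the ring-shaped chaperonin that folds actin and tubulin, and prefoldin, which hands clients to it, gave 13 tested genes. Of these 4 differed among pools: Cct6a at 9.49 in I1a to 11.12 in I2, Vbp1 at 9.12 in I1a to 10.51 in I2, Cct8 at 5.22 in I1a to 6.44 in I2, and Pfdn2 at 4.97 in I1a to 6.17 in I2. I1a, which also had the lowest pool median over all genes tested (6.39), had the lowest mean for 11 of 13 (84.6%), against 23.2% of all genes. With arrays centred on their median, a setting added after the data were examined, it had it for 8 (61.5%), against 11.3%. I1a was also the lowest pool for Hsph1, a gene of another list.

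Between I1a and I1b, 3 of the 55 were called, all lower in I1a, beside 579 of 4409 genes called (13.1%) and 431 lower in I1a (9.78%): Cct6a at -1.3 (adjusted p 2.34e-06 by limma), Dnajc21 at -1.23 (0.00013) and Hspa9 at -1.06 (0.00027). After quantile normalization these were -1.03, -0.97 and -0.77, and Hspa9 differed by -0.85 without I1b replicate 2, so that the size required was kept under these settings by Cct6a. Between I3a and I3b 1 of the 55 was called, beside 9.91% of all genes: Dnajc10, at -1.04 (adjusted p 2.2e-05 by limma). It was not called after quantile normalization (-0.89), without I3a replicate 2 (-0.97) or without I3b replicate 1 (-0.96). Between E1 and E2 0 of the 55 were called by limma, beside 7.39% of all genes.

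Of 4 mitochondrial genes tested, 1 differed among pools, Grpel1, the exchange factor of the mitochondrial HSP70, at 5.22 in I1a to 6.27 in I3a. The chaperonin pair Hspd1 and Hspe1 had ranges of 0.83 and 0.39. Of the heat shock factors measured, the probe sets of Hsf2 and Hsf4 lay at 2.39 in their highest pool, and Hsbp1, which binds HSF1, was the 1 gene of that list tested, at 4.83 in E1 to 6.25 in I2. Hsf2 and Hsf4 were chosen for mention after their values were seen. Bag3, the partner of Hspb8, had a highest pool mean of 2.54. Among immediate early genes, which handling can raise, Fos was highest in I3b at 6.43, then 5.27 in E1 and 5.06 in E2, and lowest in I2 at 2.8. Dusp1 was highest in I2 at 8.22 and lowest in I3a at 5.74. The mean of the 8 measured was 3.26 in I3a to 3.79 in I3b, and the part of handling in the Hspb8 pattern was not tested.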

How the data were processed

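The deposited values are log2 signals that the authors made with affy and GCRMA, per the submitters' processing notes; versions, genome build and the choice of probe sets are not given in the sources used here, and the log base was read from the values. Further work used R 4.3.3 with limma 3.58.1, pandas 2.3.3 and matplotlib 3.10.9. Of 30843 probe sets, 24034 carry 1 gene symbol (6268 none, 477 several, 64 controls, left out), and 23883 matched RefSeq by Entrez identifier. Each gene took its probe set of highest mean, and 4409 genes with a mean of at least 5 in at least 1 pool were tested with lmFit and eBayes with an intensity trend. Calls needed a Benjamini-Hochberg adjusted p under 0.05 over all 4409 and 1 log2 unit or more of difference. E against I and I1 against I3 used 7 pool means, the other comparisons all 14 arrays. Fits were tested on simulated data. Listed genes named are up to 4 per list with the largest range, those called, and the 3 most like a member. Members and lists were chosen with earlier results of these data known. Alternatives changed the probe set, filter, scaling, floor, variance model, replicates and pools. The number of arrays and pools limits precision.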

Additional observations from a re-analysis of the deposited data

Results flagged for a closer look

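Of 6 probe sets of members that reached 5 in at least 1 pool, 1 had an I pool far from the other 4 by Dixon's criterion. The Hspa5 probe set 1447824_x_at read 7.53 in I2, where the nearest of the other I pools, I3b, read 8.02, and this gap was 0.763 of the range of the 5 I pools. Chance sets apart about 1 group in 20. The brighter Hspa5 probe set, 1416064_a_at, read 9.17 in I2, close to 9.18 in I1a.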

How the results depend on the processing

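Over the alternatives, members called in E against I and in I1 against I3 stayed at 0. Over all genes, the 1 called in E against I became 2 without a filter, 2 with a filter at 7, 2 with values under 5 set to 5, 0 without the intensity trend and 6 with the pool as a random block, and the 0 called in I1 against I3 became 1, 2, 1 and 114 without a filter, with values under 5 set to 5, without the trend and with the random block. With the mean of probe sets, a filter at 7 and values under 5 set to 5, in turn, E1 against E2 gave 187, 193 and 217 genes (326 in the reported setting), I1a against I1b 309, 304 and 358 (579) and I3a against I3b 246, 218 and 256 (437). Among the 7 pools the first 2 of these gave 1468 and 1350 (2433). Fewer genes were tested in the first 2 settings, 3164 and 2416. Members called in E1 against E2 fell from 2 to 1 with the mean of probe sets and with a filter at 7, where 4 and 3 members were tested and Hspa1b was not, and to 1 without a filter, where Hspb8 lost its call; in I1a against I1b from 2 to 1 after quantile normalization and centring; in I3a against I3b from 2 to 0 without a filter, 1 with a filter at 7, where Hspa8 was not tested, and 0 with values under 5 set to 5; and among the 7 pools from 4 to 2 with a filter at 7, where 3 members were tested.

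Some differences that were not called turned sign. In I1 against I3 Hspa8 gave -0.04 with values under 5 set to 5, and Hspa5 gave 0.1 with the mean of probe sets and 0.01 after quantile normalization. In I1a against I1b Hspa5 gave 0.02 after quantile normalization, and in I3a against I3b 0.08 and 0.09 after quantile normalization and centring. The cause was not tested. Leaving out an array, a replicate or a pool gave 0 to 2 genes in E against I and 0 in I1 against I3, with 0 members called in both, 313 to 361 genes in E1 against E2 and 522 to 646 in I1a against I1b with 2 members in each, 396 to 481 in I3a against I3b with 1 to 2, and 2386 to 2495 among the pools with 3 to 4. The same settings gave Hspa8 -0.58 to 0.1 in E against I, and in I1 against I3 Hspb8 -0.01 to 4.1, Hspa8 -0.54 to 0.74, Hspa5 -0.2 to 0.07 and Hsph1 -0.19 to 0.84. They gave Hspa1b -1.34 to 0.05 in I1a against I1b, and in I3a against I3b Hspa5 -0.04 to 0.02 and Hsph1 -0.01 to 0.1. With the technical replicate number as a block the fits called 327, 579, 436 and 2430 genes in E1 against E2, I1a against I1b, I3a against I3b and among the pools, and the members called stayed at 2, 2, 2 and 4. Same-numbered arrays deviated together with r over 0.1 in 4 of 21 pairs of types (-0.117 to 0.212, median 0). The reported fits did not pair arrays by this number, and whether some same-numbered arrays share a batch was not tested. Low signal limits Hspa8, Hspa1b and the lower pools of Hspb8.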
